A study of Mus musculus with 71 samples.

Results

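The diacylglycerol kinase genes of the mouse were read in all 71 libraries of a bulk RNA sequencing series on the brain after a skin burn. The family has 10 listed members (Dgka, Dgkb, Dgkd, Dgke, Dgkg, Dgkh, Dgki, Dgkk, Dgkq and Dgkz) among the 55416 genes of the deposited count table, and all 10 passed the filter on low counts in every fit. The family was selected on the measured Dgkk counts in hippocampus, where Dgkk was higher in burn than in sham libraries. Values of that contrast are therefore given as a description, with no test.

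Diacylglycerol kinases phosphorylate the membrane lipid diacylglycerol to phosphatidic acid. In neurons diacylglycerol forms when phospholipase C cleaves phosphoinositides below activated receptors, and it switches on protein kinase C, RasGRP and Munc13 proteins. The kinases end that signal and return the lipid to the phosphoinositide cycle. The type I enzymes (Dgka, Dgkb, Dgkg) carry calcium-binding EF hands and the type II enzymes (Dgkd, Dgkh, Dgkk) a pleckstrin homology domain. Dgke is the smallest enzyme and prefers arachidonate-containing lipid, Dgkz and Dgki carry ankyrin repeats, and Dgkq encodes the theta enzyme. In mouse cortical neurons the Dgkk mRNA is a known target of the fragile X protein FMRP.

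The animals were C57BL/6J mice. In the burn group a brass rod 19 mm across, heated above 90 °C, was held on the right flank for 10 s and gave a full-thickness injury of 7 to 8% of the body surface. In the excision group full-thickness skin was cut out on the back along a 12 mm template, and in the sham group the back was only shaved. All groups had isoflurane, buprenorphine at 0.1 mg/kg and paracetamol in the water at 1 mg/mL for 5 days. The hippocampus gave 10 burn, 10 excision and 9 sham libraries, the piriform cortex 5, 4 and 5, and the frontal cortex 10, 10 and 8. Hippocampus and frontal cortex came in 2 labelled batches each, while the piriform cortex formed a batch of its own, so that there its region and batch cannot be told apart. The titles of all 14 piriform libraries name the frontal cortex, while their source and tissue fields name the piriform cortex, which was followed, so every comparison of these regions rests on those fields. The labels state neither sex, age nor time after injury, nor whether the regions come from the same mice. They do not say that each library is a separate mouse either, so p-values measure the spread between libraries, which may be technical.

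Library totals lay between 6.65 and 34.1 M counts in batch 1 of hippocampus, 30.7 and 70.7 M in its batch 2, 46.8 and 76.4 M in piriform cortex and 47.4 and 87.8 M in frontal cortex. The 4 libraries under 10 M were all of hippocampus batch 1. Title and treatment field disagree for 4 libraries, and the field was kept (frontal cortex burn replicates 7 and 8 and excision replicate 7, piriform sham replicate 2). The numbers in the library names run in blocks by treatment within each batch. Each of these 4 libraries sits in the block of its treatment field, not of its title. Summed markers of the Ammon horn fields were at 384 to 554 CPM in hippocampus, 172 to 396 CPM in piriform cortex and 171 to 308 CPM in frontal cortex, and cortical layer markers were at 171 to 365, 465 to 955 and 238 to 761 CPM in the same regions. Xist was above 1 CPM in 71 libraries and the Y-linked Ddx3y was at most 0.0357 CPM, given here because Dgkk lies on the X chromosome.

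Dgkk lies on chromosome X at 6779306 to 6948363 (plus strand, GRCm38), with 7158 exonic bases and no exon of another gene across them. The stretch just before its annotated start, chrX:6779056-6779305, is shown because Dgkk is the gene on which the choice of the family rests and because this stretch sets it apart from the other members in sequence. It is taken from the RefSeq promoter table (GRCm38.p6), with each copy of a recurring 12-base word in capitals.

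Dgkk upstream stretch: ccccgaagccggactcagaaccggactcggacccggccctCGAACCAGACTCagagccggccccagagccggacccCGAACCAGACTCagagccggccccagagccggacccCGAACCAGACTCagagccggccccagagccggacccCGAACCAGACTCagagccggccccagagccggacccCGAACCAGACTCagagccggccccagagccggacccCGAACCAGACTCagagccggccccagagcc

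The word CGAACCAGACTC, taken as the first of the most frequent 12-base words of the stretch, occurs 6 times on the plus strand, 36 bases apart. In the 300-base RefSeq window that runs past the start, 92.4% of bases equal the base 36 positions on, and G and C make up 71% of it. Among all 32817 promoter windows of the table the median GC share was 52.7%, the word was found on either strand in 0.00305% of windows, which is 1 window, and 0.0122% were as repetitive. All 10 members had a window, and in those of the other 9 at most 40.9% of bases recurred at any single offset from 10 to 100 bases. The human enzyme is known to carry tandem repeats of a short proline-rich unit near its start. Whether the repeat shown is transcribed in mouse brain, or codes for protein beyond the annotated start, was not examined. The comparison with promoter windows therefore does not show that it acts as a promoter. How the authors' counting treated reads from it is not known here.

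Dgkz had the highest level per length and Dgkk the lowest in all 3 regions. Levels here are in RPKM, counts scaled by TMM to library size and then by exon length, as mean ± SD over all libraries of a region. Dgkz, whose zeta enzyme is known at the postsynaptic density, averaged 95.01 ± 18.2 RPKM in hippocampus (n = 29), 139 ± 10.1 RPKM in piriform cortex (n = 14) and 120.0 ± 24.1 RPKM in frontal cortex (n = 28). It made up 63.6%, 74.5% and 69.2% of the family's summed RPKM in these regions. The other ankyrin-repeat member, Dgki, averaged 2.00 ± 0.493, 2.59 ± 0.382 and 3.21 ± 0.898 RPKM in the same order of regions. By mean level Dgki ranked 9, 7 and 7 of the 10 members in these regions.

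Of the type I genes, Dgkb, a gene known for high expression in striatum, averaged 11.4 ± 2.38 RPKM in hippocampus, 11.2 ± 2.44 RPKM in piriform cortex and 14.3 ± 3.64 RPKM in frontal cortex. Dgkg, known from cerebellar Purkinje cells and hippocampus, averaged 10.98 ± 2.98, 3.14 ± 0.597 and 5.06 ± 1.21 RPKM in the same order. Its 29 hippocampus libraries all lay above its 14 piriform libraries. Dgka, best known as a brake on T cell activation, averaged 2.24 ± 0.339, 2.32 ± 0.466 and 1.77 ± 0.376 RPKM.

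Of the type II genes, Dgkd averaged 14.3 ± 1.05 RPKM in hippocampus, 13.5 ± 0.919 RPKM in piriform cortex and 15.0 ± 1.59 RPKM in frontal cortex. Dgkh averaged 3.93 ± 0.985, 4.196 ± 0.524 and 3.41 ± 1.02 RPKM in the same order. Dgkk averaged 0.147 ± 0.0811, 0.111 ± 0.1104 and 0.186 ± 0.112 RPKM. It was the lowest member in every region and made up 0.0982%, 0.0595% and 0.108% of the family's summed RPKM. It was also the most variable, with an SD of 55.3%, 99.2% and 60.1% of its mean, where Dgkd had 7.32%, 6.79% and 10.6%.

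Dgke, the only member of type III, averaged 7.20 ± 0.747 RPKM in hippocampus, 8.24 ± 1.13 RPKM in piriform cortex and 8.23 ± 1.33 RPKM in frontal cortex. Dgkq averaged 2.22 ± 0.338, 2.33 ± 0.619 and 2.16 ± 0.396 RPKM. Between the top and the bottom of the order most neighbours overlapped: in hippocampus Dgkb was above Dgkg in 17 of 29 libraries and Dgka above Dgkq in 15 of 29. In frontal cortex Dgkd was above Dgkb in 17 of 28. The reads of Dgkq are the least certain, since 2090 of its 7189 exonic bases overlap Tmem175 on the other strand and the strand setting of the counting is not given in the sources used here.

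**Figure D1:**
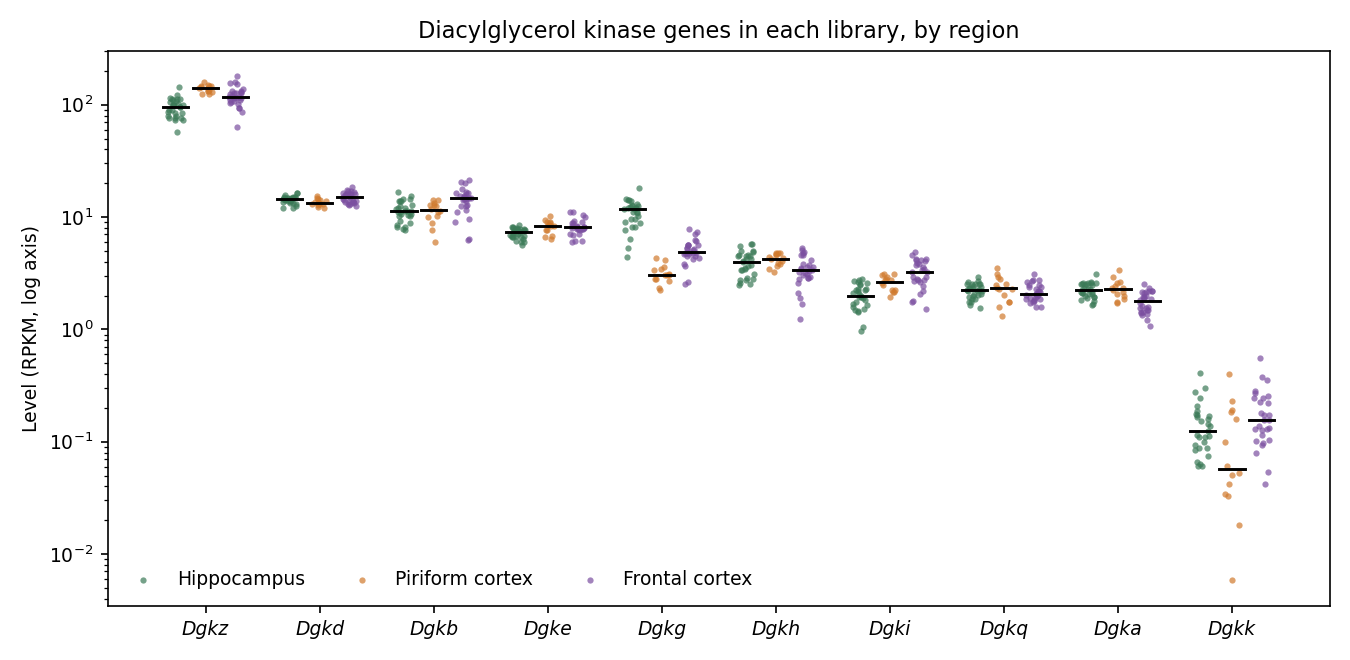
Level of each diacylglycerol kinase gene in RPKM (log axis), 1 point per library, with hippocampus (n = 29), piriform cortex (n = 14) and frontal cortex (n = 28) side by side and a bar at each median. Dgkz has its lowest library at 57.6 RPKM and Dgkk its highest at 0.560 RPKM, and Dgkg is the member whose regional medians lie furthest apart by ratio.

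Dgkk in burn hippocampus is the pattern by which the family was chosen, and its values are given per library on the CPM scale. Burn hippocampus had a lowest value of 0.601, a median of 1.25 and a highest of 2.94 CPM (n = 10). Excision hippocampus had 0.431, 0.797 and 1.48 CPM (n = 10), and sham hippocampus 0.454, 0.663 and 0.983 CPM (n = 9). Burn replicate 8 lay within the sham range and the other 9 burn libraries lay above every sham library, while 4 burn libraries lay above every excision library and excision and sham overlapped.

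The fitted log2 difference of Dgkk was 1.08 (SE 0.26) for burn against sham, 0.64 (SE 0.24) for burn against excision and 0.44 (SE 0.26) for excision against sham. These 3 contrasts share libraries with the choice of the gene and no p is given for them. Within batch 1 the burn libraries averaged 1.86 ± 0.781 CPM and the sham libraries 0.634 ± 0.137 CPM (SD, n = 5 and n = 4), and within batch 2 they averaged 1.19 ± 0.412 CPM and 0.734 ± 0.224 CPM (n = 5 each). The fitted difference was 1.56 (SE 0.33) in batch 1 alone and 0.68 (SE 0.34) in batch 2 alone.

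The counts behind these values were small. Dgkk had 3 to 92 counts per hippocampus library, so that excision replicate 3, with 3 counts and 0.431 CPM, has an exact Poisson 95% interval of 0.0888 to 1.26 CPM, for counting error only. This library and burn replicate 5, with 16 counts and 2.15 CPM, are among those under 10 M counts. Without the libraries under 10 M the fitted difference of burn against sham was 1.05. Marker lists of other tissue and of hippocampal fields also differed in their medians between these groups. The summed choroid plexus markers had a lowest value of 42.9, a median of 1700 and a highest of 6864 CPM in burn hippocampus, 25.2, 56.2 and 3083 CPM in excision and 44.3, 172 and 5255 CPM in sham, and 10 of 10 of these genes lay on the positive side in burn against sham. Dentate gyrus markers had medians of 317, 379 and 360 CPM in burn, excision and sham, with 4 of 5 on the negative side, and habenula and thalamus markers had 68.9, 65.1 and 64.8 CPM, with 9 of 9 tested on the positive side. Their part in the Dgkk difference was not tested. In bulk tissue fewer cells that express a gene and less of its RNA per cell cannot be told apart.

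**Figure D2:**
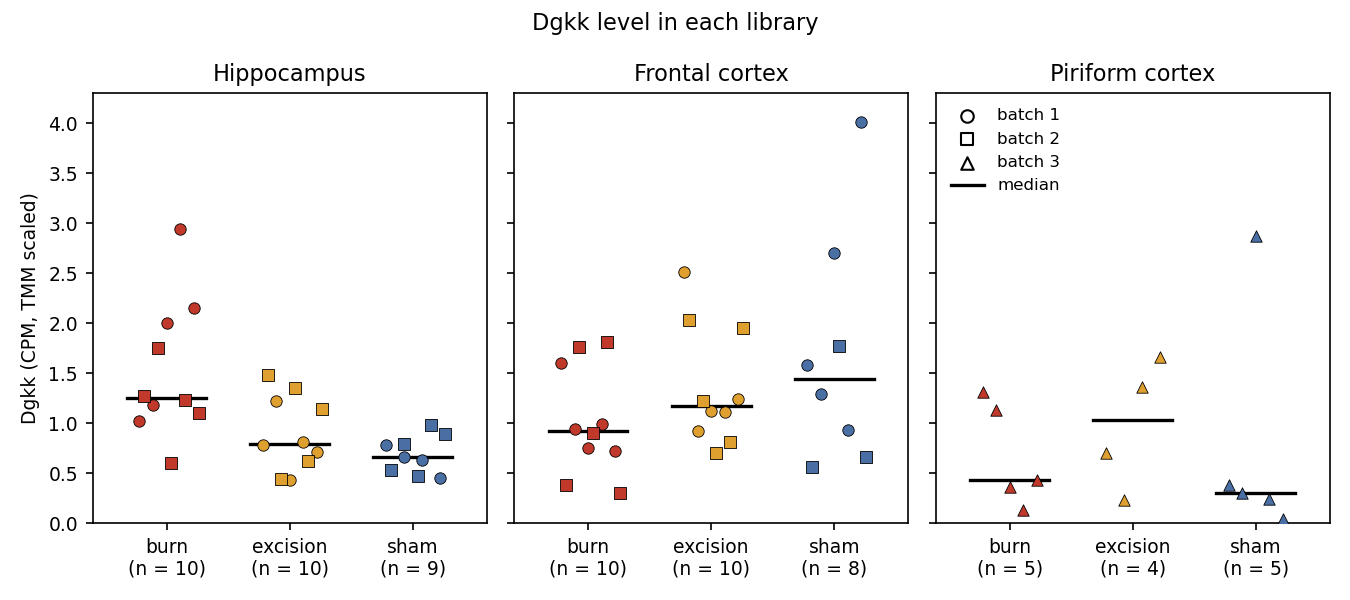
Dgkk level in CPM in each library, for burn, excision and sham in each region, with batches marked by symbol and a bar at each median. In hippocampus the burn median is 1.25 CPM beside 0.663 CPM in sham, in frontal cortex it is 0.924 CPM beside 1.44 CPM, and 1 piriform sham library stands at 2.87 CPM.

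The other 9 members in hippocampus spanned -0.29 (Dgkz) to 0.12 (Dgkg) in burn against sham, with 3 positive and 6 negative values. Across all genes of this contrast 1.03% were called (202 of 19574), and 1 of the 10 members, Dgkk, was among them. Because the choice of the family used this contrast, nothing is read from that count. Dgkz, the most abundant member, averaged 537 ± 97.9 CPM in burn hippocampus and 649 ± 130.3 CPM in sham hippocampus.

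Burn against excision in hippocampus gave no call among the 9 members other than Dgkk. Of these 9 members 0 were called by edgeR's quasi-likelihood test and 0 by DESeq2, 2 had an unadjusted p under 0.05, and 0.209% of all genes were called (41 of 19574). The 9 members other than Dgkk were all on the negative side, from -0.33 (Dgkh) to -0.02 (Dgke), with a median over the 10 members of -0.06 beside 0.01 over all genes. Members were correlated over the 29 hippocampus libraries after batch and treatment means were subtracted. Their r ran from -0.68 (Dgkb and Dgkz) to 0.88 (Dgkd and Dgkh). The signs are therefore not independent, and nothing is read from their count. Dgkh, the eta enzyme, averaged 59.3 ± 16.4 CPM in burn and 73.5 ± 13.8 CPM in excision hippocampus, and its ranges overlapped.

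Excision against sham in hippocampus likewise gave 0 calls among the 9 members other than Dgkk by either tool, with 0 at an unadjusted p under 0.05. The percentage called over all genes was 0 (0 of 19574 by edgeR and 0 by DESeq2, with 727 at an unadjusted p under 0.05). The 9 members other than Dgkk lay between -0.09 (Dgkz) and 0.17 (Dgkg). These 3 contrasts share their groups, so their values are not independent of each other.

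In frontal cortex Dgkk had its lowest values after burn, though the groups overlapped. Burn frontal cortex had a lowest value of 0.299, a median of 0.924 and a highest of 1.81 CPM (n = 10). Excision had 0.698, 1.18 and 2.51 CPM (n = 10), and sham 0.563, 1.44 and 4.01 CPM (n = 8). No burn library lay above the highest sham library, and 2 burn libraries lay below the lowest.

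The log2 difference of Dgkk for burn against sham in frontal cortex was -0.67 (SE 0.37) and did not pass (edgeR adjusted p = 0.447). It was -0.42 (SE 0.34, edgeR adjusted p = 0.632) for burn against excision and -0.25 (SE 0.36, edgeR adjusted p = 0.969) for excision against sham. In batch 1 alone burn against sham was -1.09 (SE 0.38), and in batch 2 alone, with 5 burn and 3 sham libraries, it was 0.04 (SE 0.59). The difference between these batch effects was 1.11 (SE 0.73, edgeR adjusted p = 0.387). Over the alternatives the value for burn against sham ran from -1.09 to 0.04 and none was called.

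Dgke had the smallest adjusted p of the family in frontal cortex. It had a lowest value of 50.9, a median of 76.2 and a highest of 93.6 CPM after burn (n = 10), 51.1, 65.5 and 75.0 CPM after excision (n = 10), and 50.1, 65.8 and 74.1 CPM in sham (n = 8). Thus 6 of 10 burn libraries lay above every sham library, and the ranges overlapped. The log2 difference was 0.25 (SE 0.09) for burn against sham (edgeR adjusted p = 0.217) and 0.25 for burn against excision (edgeR adjusted p = 0.244). Without burn replicate 6 burn against excision was called at 0.29 (edgeR adjusted p = 0.0403).

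Burn and sham values of Dgke lay further apart in batch 1 of frontal cortex than in batch 2. In batch 1 burn averaged 87.5 ± 6.56 CPM and sham 65.2 ± 9.12 CPM (SD, n = 5 each), where the lowest burn library, at 78.0 CPM, lay above the highest sham library, at 74.1 CPM. In batch 2 burn averaged 66.1 ± 8.88 CPM (n = 5) and sham 64.2 ± 4.33 CPM (n = 3). Batch 1 alone gave 0.41 (SE 0.10) for burn against sham (edgeR adjusted p = 0.032) and batch 2 alone 0.04 (SE 0.13). Of 37 alternatives, 1 called Dgke in burn against sham and 2 in burn against excision. Batch 1 alone also called 11 of the 78 signalling genes described below in burn against sham, where both batches together called 1. The number called over all genes in batch 1 alone is not given here. Nothing particular to Dgke is therefore read from its call in batch 1. The difference of the burn effect between batches did not pass the test for any member, and its smallest edgeR adjusted p, 0.213, was that of Dgke.

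Over the family, burn against sham in frontal cortex had 0 calls among the 10 members by edgeR and by DESeq2, with 1 at an unadjusted p under 0.05, while 0.28% of all genes were called (59 of 21077). Values other than that of Dgkk lay between -0.09 (Dgkd) and 0.25 (Dgke). Burn against excision had 0 calls by either tool and 1 at an unadjusted p under 0.05, with 0.209% of all genes called (44 of 21077). Excision against sham had 0 calls by either tool and 0 at an unadjusted p under 0.05, and 0% of all genes were called (0 of 21077 by edgeR and 0 by DESeq2, with 1007 at an unadjusted p under 0.05).

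Marker lists also leaned to one side in frontal cortex, though no gene of those given here was called. In burn against sham 7 of 7 cortical layer markers were on the positive side (median 0.36), with sums of 377 to 761 CPM in burn and 327 to 530 CPM in sham. Of the astrocyte markers 0 of 6 were positive (median -0.21), with sums of 1878 to 3936 CPM in burn and 2545 to 4444 CPM in sham, and of the microglia markers 0 of 6 (median -0.19), with sums of 235 to 312 CPM in burn and 254 to 378 CPM in sham. The burn effect of batch 2 minus that of batch 1 was positive for 8 of 8 striatal markers (median 1.81) and 6 of 6 Ammon horn markers (median 0.51), and for 1 of 7 cortical layer markers (median -0.51). Their part in the Dgkk and Dgke values of these contrasts was not tested.

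In piriform cortex no difference of Dgkk between treatments passed the test, and libraries of each group were spread widely. Burn piriform cortex had 0.130, 0.359, 0.433, 1.14 and 1.31 CPM, excision had 0.235, 0.705, 1.36 and 1.66 CPM, and sham had 0.0416, 0.247, 0.298, 0.379 and 2.87 CPM. Sham replicate 3, at 2.87 CPM, was the highest of the 14 piriform libraries, while the other 4 sham libraries lay at 0.379 CPM or below and the ranges of all groups overlapped. The log2 difference for burn against sham was -0.19 (SE 0.80, edgeR adjusted p = 0.973) and became 1.43 (SE 0.69, edgeR adjusted p = 0.997) without sham replicate 3. It was -0.55 (SE 0.84, edgeR adjusted p = 0.857) for burn against excision and 0.36 (SE 0.84, edgeR adjusted p = 0.983) for excision against sham, which became 1.99 (SE 0.71, edgeR adjusted p = 0.528) without that sham library.

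The other piriform values were small. Members other than Dgkk lay between -0.21 (Dgkg) and 0.22 (Dgkb) in burn against sham, -0.32 (Dgkg) and 0.31 (Dgka) in burn against excision, and -0.40 (Dgka) and 0.32 (Dgkb) in excision against sham. Neither edgeR nor DESeq2 called any of the 10 members in these contrasts, and 0, 0 and 2 members had an unadjusted p under 0.05. The percentage called over all 21004 genes was 0 in each by edgeR, with 896, 1658 and 1102 genes at an unadjusted p under 0.05, and DESeq2 called 1, 59 and 2 genes.

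The 2 regions not used in the choice were compared directly for the burn effect. The burn effect on Dgkk was 0.48 (SE 0.81) larger on the log2 scale in piriform than in frontal cortex, which did not pass (edgeR adjusted p = 1). The excision effect on Dgkk was 0.67 (SE 0.47) larger in hippocampus than in frontal cortex, given as a description since it uses hippocampus libraries of the choice. In these tests and in that between the frontal batches 0 of 10, 0 of 9 (without Dgkk) and 0 of 10 members were called by edgeR. Of all genes 0% were called (0 of 22749, 0 of 21610 and 0 of 21077). Unadjusted p under 0.05 was found for 752, 1524 and 4088 genes, and for 0, 0 and 2 members. DESeq2 was not run on them.

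**Figure D3:**
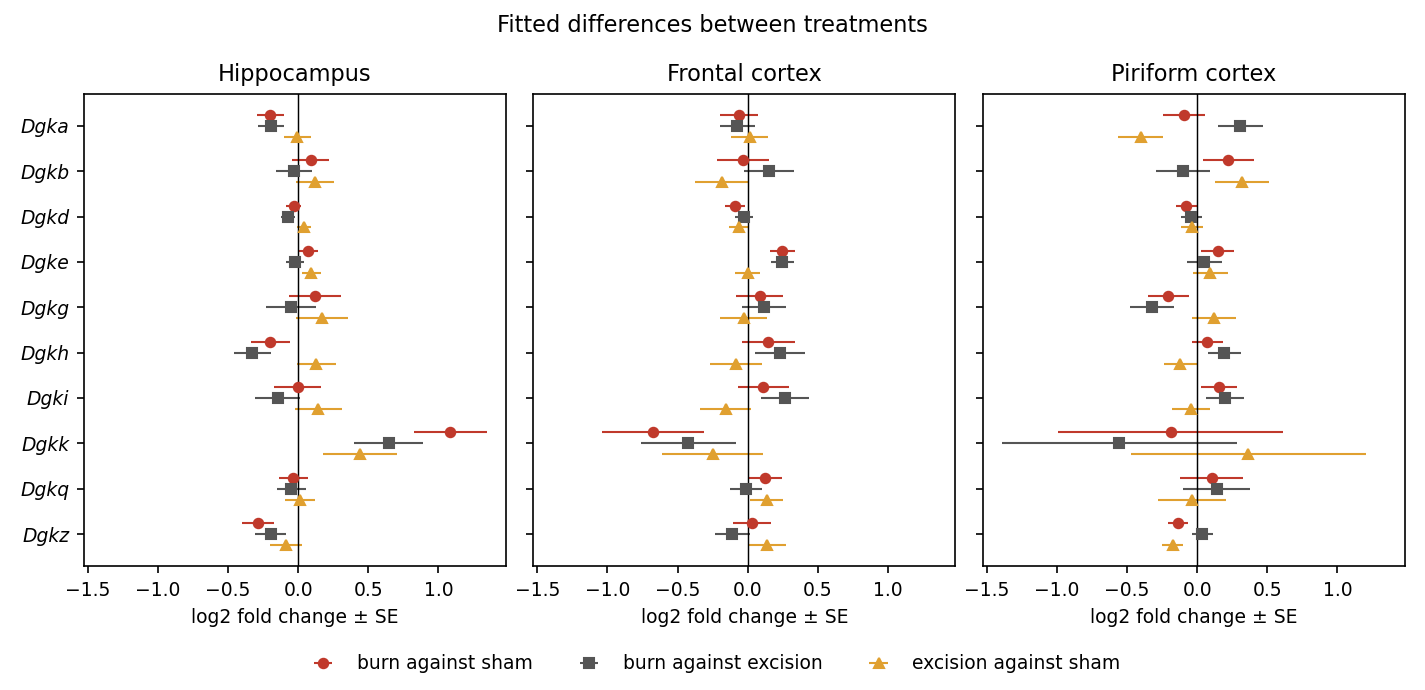
Fitted log2 fold change of each member with its SE, for burn against sham, burn against excision and excision against sham in each region. Most values lie within 0.4 of 0, and Dgkk has the widest errors, from SE 0.24 in hippocampus to 0.84 in piriform cortex.

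Several members differed between regions. Among sham libraries, 4 of the 9 members other than Dgkk passed in hippocampus against frontal cortex, 2 higher and 2 lower, where 41% of all genes were called (7919 of 19336), 20.8% higher and 20.1% lower. The members' share was thus close to that of all genes.

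Dgkg had the largest positive difference. It had a lowest value of 40.5, a median of 100.3 and a highest of 131 CPM in sham hippocampus (n = 9) and 38.8, 44.1 and 57.4 CPM in sham frontal cortex (n = 8). All but 1 of the hippocampus libraries lay above every frontal library. The log2 difference was 1.03 (SE 0.17, edgeR adjusted p = 7.46e-05) and was called in all 22 alternatives. Over all treatments, 25 of 29 hippocampus libraries lay above all 28 frontal libraries.

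Dgka was also higher, with 7.98, 11.2 and 14.7 CPM in sham hippocampus and 5.12, 8.996 and 10.5 CPM in sham frontal cortex as lowest, median and highest. The log2 difference was 0.40 (SE 0.14, edgeR adjusted p = 0.0231). It was not called without hippocampus sham replicate 4 (0.31, edgeR adjusted p = 0.068).

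Dgki, the iota enzyme, was lower: sham hippocampus had 6.05, 12.3 and 17.5 CPM and sham frontal cortex 17.2, 19.6 and 26.5 CPM, and 8 of 9 hippocampus libraries lay below every frontal library. The log2 difference was -0.75 (SE 0.20, edgeR adjusted p = 0.00486). Dgkb was lower as well, with 88.9, 128 and 164 CPM in sham hippocampus and 103, 171 and 231 CPM in sham frontal cortex. Its log2 difference was -0.52 (SE 0.14, edgeR adjusted p = 0.00593), and the ranges overlapped. Striatal markers summed to 203 to 1841 CPM in the same frontal sham libraries and to 104 to 217 CPM in the hippocampus sham libraries. Their part in the regional differences given here was not tested.

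For Dgkk the sham hippocampus libraries are those used in its choice, so its difference of -1.13 (SE 0.36) from sham frontal cortex is a description. With all 3 treatments in the fit it was -0.34. Its frontal sham libraries ran from 0.563 to 4.01 CPM, beside a summed level of striatal markers of 203 to 1841 CPM, against 104 to 217 CPM in sham hippocampus.

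In piriform against frontal cortex 2 of 10 members passed in sham libraries, where 8.79% of all genes were called (1809 of 20576), 4.51% higher and 4.28% lower. Dgkz had 889, 928 and 993 CPM as lowest, median and highest in sham piriform cortex (n = 5) and 587, 725 and 820 CPM in sham frontal cortex (n = 8). The groups did not overlap, and the log2 difference was 0.38 (SE 0.08, edgeR adjusted p = 0.0121). Dgkg had 20.7, 28.4 and 40.2 CPM in sham piriform cortex and 38.8, 44.1 and 57.4 CPM in sham frontal cortex, a difference of -0.64 (SE 0.15, edgeR adjusted p = 0.015). Dgkz was higher and Dgkg lower in all 17 alternatives.

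The number of members called in piriform against frontal cortex depended on the fit. DESeq2 called 5, adding Dgka, Dgkb and Dgki, and called 2673 genes over all, where edgeR called 1809. Without frontal sham replicate 1 the edgeR test called 4, adding Dgkb and Dgki. Without piriform sham replicate 3 it called 5, adding Dgka, Dgkb and Dgkk, and the log2 difference of Dgkk was -2.78 (edgeR adjusted p = 0.0137) in place of -1.16 (SE 0.72, edgeR adjusted p = 0.36). The numbers called over all genes without these libraries are not given here, so nothing particular to the members is read from these counts.

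**Figure D4:**
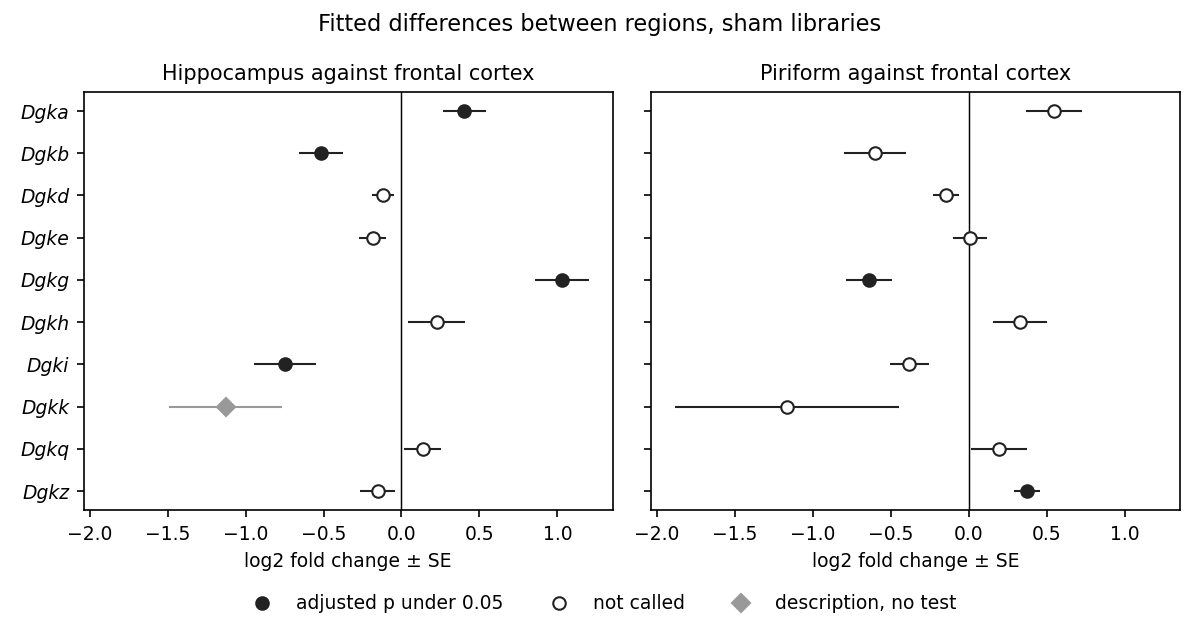
Fitted log2 fold change of each member with its SE among sham libraries, for hippocampus against frontal cortex (left) and piriform against frontal cortex (right), with black points where the adjusted p was under 0.05 and a grey diamond for Dgkk on the left, which is shown with no test. Dgkg is at 1.03 on the left and -0.64 on the right, the only member called on both sides.

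The genes around the kinases were read as 4 lists of 78 genes in all: phospholipase C enzymes, targets of diacylglycerol, other enzymes that make or use diacylglycerol or phosphatidic acid, and the phosphoinositide cycle. In frontal cortex after burn 1 of 78 passed, against 0.28% of all genes. It was Plcd4, a phospholipase C, which fell by 0.48 on the log2 scale (SE 0.09, edgeR adjusted p = 0.0146). It averaged 9.66 ± 0.722 CPM in burn (n = 10) and 13.5 ± 2.29 CPM in sham frontal cortex (n = 8). The call was lost in batch 2 alone, with the treatment taken from titles, and with the title number as a block in a smaller set of libraries. In each of these no gene of the lists passed, and batch 1 alone called 11. The number called over all genes in batch 1 alone is not given here, so nothing is read from these 11. The median log2 difference of the 78 genes was -0.04, beside -0.02 over all genes. The part of the cortical layer, astrocyte and microglia markers of the same contrast in the Plcd4 value was not tested.

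In hippocampus 1 of 78 genes passed in burn against sham, Plch2, another phospholipase C, at 141 ± 14.5 CPM in burn and 170.1 ± 16.4 CPM in sham, in the contrast used for the choice, from which nothing is read. The call was lost without a count filter, without a batch term and in batch 2 alone, and the count was 0 to 4 with 1 library left out. In burn against excision and excision against sham 0 of 78 passed by edgeR in hippocampus, frontal and piriform cortex, and 0 of 78 in burn against sham in piriform cortex. Unadjusted p under 0.05 was found for 9, 18 and 3 genes in burn against excision, for 2, 10 and 2 in excision against sham, with the regions in that order, and for 1 in piriform burn against sham, and DESeq2 called 0 in these contrasts.

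Between sham hippocampus and sham frontal cortex 35 of the 78 genes passed, 10 higher and 25 lower, where 41% of all genes were called, 20.8% higher and 20.1% lower. Among those with the smallest p were Pitpnm3, a phosphatidylinositol transfer protein (-1.41, SE 0.10), Chn2, a diacylglycerol-binding Rac GTPase activator (-1.17, SE 0.09), and Plcb4, a receptor-coupled phospholipase C (-1.64, SE 0.16). Their edgeR adjusted p ran from 6.14e-10 for Pitpnm3 to 8.69e-08 for Plcb4. The phosphoinositide cycle had 1 higher and 10 lower among its 22 genes, and the list of diacylglycerol targets 4 and 8 among 22. The median of the 78 genes was -0.10, beside -0.0016 over all genes.

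Between sham piriform and sham frontal cortex 9 of the 78 genes passed, 6 higher and 3 lower, where 8.79% of all genes were called. Nothing particular to the lists is read from these region counts. Dagla, which turns diacylglycerol into the endocannabinoid 2-arachidonoylglycerol, was higher by 0.69 (SE 0.12, edgeR adjusted p = 0.00367). Unc13b, a Munc13 gene, was higher by 0.85 (SE 0.17, edgeR adjusted p = 0.00726) and Plcd1 by 0.61 (SE 0.10, edgeR adjusted p = 0.00275). Chn2 was lower, at -0.85 (SE 0.10, edgeR adjusted p = 0.000257).

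Dgkk levels were set beside marker lists of neighbouring areas and cell types, after the mean of each batch and treatment was subtracted from the log2 level. The 14 lists in 3 regions gave 42 relations, with permutation p-values from 100000 permutations, two-sided and adjusted over the 42. The permutations moved the values left after subtraction over all libraries of a region and did not allow for the subtracted means. The p-values are therefore somewhat too small, and adjusted values just under 0.05 are uncertain. The hippocampus relations use the libraries by which Dgkk was chosen, so they are given as a description. No p is given for them, though they count among the 42. In hippocampus the highest was with interneuron markers (Pearson r = 0.63, Spearman rho = 0.57, n = 29). It was 0.60 in batch 1 and 0.65 in batch 2, and 0.52 without the 2 libraries farthest from the median. For habenula and thalamus markers Pearson r was 0.47 and Spearman rho 0.48. That r was 0.60 in batch 1, 0.34 in batch 2 and 0.48 without the 2 farthest libraries. For Ammon horn markers Pearson r was 0.48 and Spearman rho 0.46, with r at 0.76 in batch 1 and 0.19 in batch 2. Cortical layer markers had Pearson r = -0.45 and Spearman rho = -0.33, with r at -0.51 in batch 1 and -0.41 in batch 2. The interneuron sum itself had a median of 840 CPM in burn (648 to 911), 765 CPM in excision (684 to 932) and 769 CPM in sham hippocampus (694 to 832).

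In frontal cortex 3 lists had relations of like size, those of striatum, Ammon horn, and amygdala and claustrum. The striatal list and the amygdala and claustrum list share the gene Ppp1r1b, so their relations are not independent. For striatal markers Dgkk had a positive relation (Pearson r = 0.65, permutation p = 0.00016, adjusted 0.00535; Spearman rho = 0.66, permutation p = 0.00019, adjusted 0.00798; n = 28), at 0.63 in batch 1, 0.66 in batch 2 and 0.69 without the 2 farthest libraries. For Ammon horn markers it was Pearson r = 0.62 (permutation p = 0.0005, adjusted 0.00535) and Spearman rho = 0.60 (permutation p = 0.00081, adjusted 0.0084), at 0.64 in batch 1, 0.61 in batch 2 and 0.65 without the 2 farthest libraries. For amygdala and claustrum markers it was Pearson r = 0.62 (permutation p = 0.00051, adjusted 0.00535) and Spearman rho = 0.59 (permutation p = 0.001, adjusted 0.0084), at 0.70, 0.57 and 0.66. Habenula and thalamus markers passed on Pearson's r alone (Pearson r = 0.47, permutation p = 0.00934, adjusted 0.0423, with Spearman rho = 0.45, permutation p = 0.0178, adjusted 0.0624), at 0.31, 0.55 and 0.33. All 8 genes of the striatal list were detected in every group, and its sum ran from 198 to 1448 CPM in burn, 231 to 1229 CPM in excision and 203 to 1841 CPM in sham frontal cortex. The 8 striatal genes were all on the negative side in burn against sham there, with a median of -0.43, and none passed. The frontal sham library with the highest Dgkk, replicate 5 at 4.01 CPM, also had the highest striatal sum.

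In piriform cortex the relation with both coefficients past the adjusted threshold was that with microglia markers (Pearson r = 0.70, permutation p = 0.00491, adjusted 0.0295; Spearman rho = 0.81, permutation p = 0.00072, adjusted 0.0084; n = 14), at 0.58 without the 2 farthest libraries. Cortical layer markers went the other way (Pearson r = -0.62, permutation p = 0.0178, adjusted 0.0574; Spearman rho = -0.81, permutation p = 0.00078, adjusted 0.0084), at -0.77 without the 2 farthest libraries. Ammon horn markers had Pearson r = 0.53 (permutation p = 0.0503, adjusted 0.132) and Spearman rho = 0.71 (permutation p = 0.00525, adjusted 0.0315), at 0.67 without them.

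Pearson's r alone passed for the amygdala and claustrum list of the piriform libraries (Pearson r = 0.78, permutation p = 0.00104, adjusted 0.00874; Spearman rho = 0.61, permutation p = 0.0238, adjusted 0.077; n = 14) and the striatal list (Pearson r = 0.73, permutation p = 0.00302, adjusted 0.0211; Spearman rho = 0.56, permutation p = 0.0418, adjusted 0.103), which share the gene Ppp1r1b. Without the 2 farthest libraries r fell to 0.48 and 0.38, so these 2 relations rest on those libraries. Sham replicate 3, with Dgkk at 2.87 CPM, had striatal markers at 2054 CPM, where the other 4 sham libraries had 218 to 284 CPM. The part of tissue composition in the Dgkk values was not tested.

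**Figure D5:**
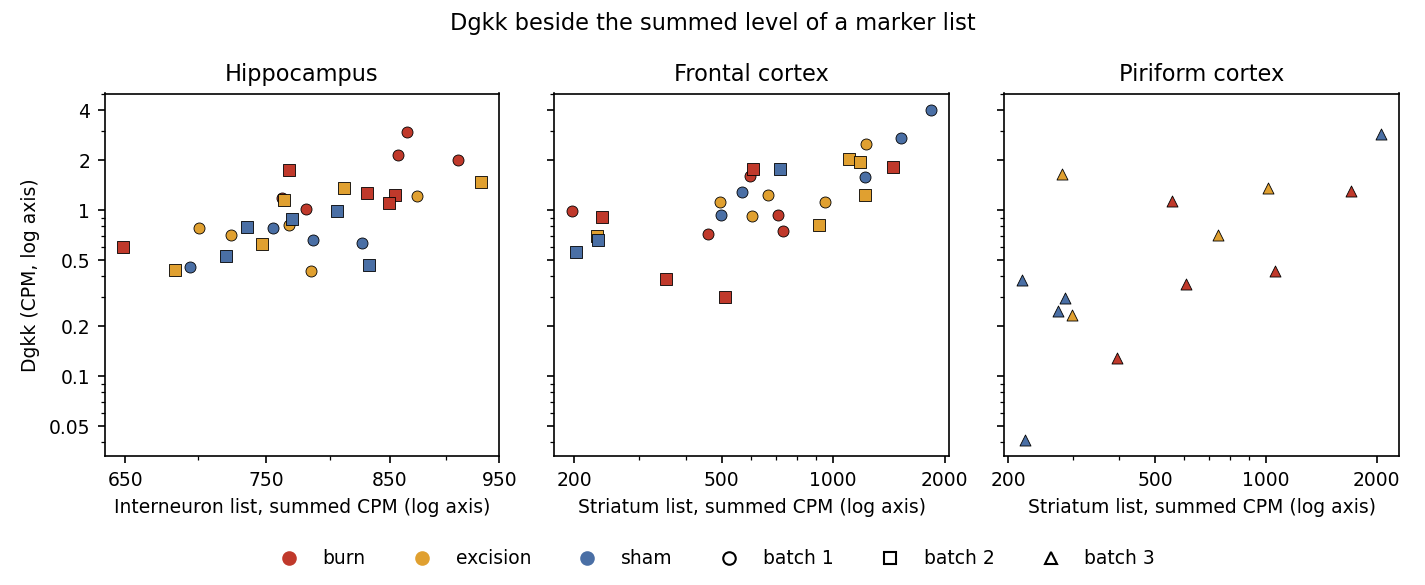
Dgkk in CPM against the summed CPM of a marker list in each library (both axes log), with interneuron markers for hippocampus and striatal markers for frontal and piriform cortex. Colours give the treatment and symbols the batch, and the libraries with the highest Dgkk in frontal cortex (4.01 CPM) and piriform cortex (2.87 CPM) are those with the highest striatal sums.

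The 5 protein-coding genes most like Dgkk in hippocampus, by Pearson r over the 29 libraries after the same subtraction among 13561 genes with a mean of at least 1 CPM, were AW551984, Rraga, Baiap3, Arhgap36 and Peg10. They were chosen for this correlation and no p is given. AW551984 had r = 0.81 in hippocampus, 0.71 in piriform and 0.61 in frontal cortex. Baiap3, which encodes a Munc13-related protein of secretory vesicle traffic, had 0.79, 0.81 and 0.77 in the same order. Of the 5 it had the most even likeness across the regions, followed by AW551984.

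Rraga, a Rag GTPase that brings mTORC1 to the lysosome, had r = 0.80 in hippocampus, 0.26 in piriform and 0.55 in frontal cortex. Arhgap36 had 0.78, 0.57 and 0.65, and Peg10, an imprinted gene derived from a retrotransposon, had 0.78, 0.24 and 0.81. The mean level of Baiap3 was 15.2 CPM in burn, 8.52 CPM in excision and 8.08 CPM in sham hippocampus. That of AW551984 was 6.82, 4.42 and 3.92 CPM in the same order, and that of Arhgap36 was 1.92, 0.871 and 0.694 CPM. The likeness was computed after treatment means were removed, so these group means are separate from it, and they too are a description.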

How the data were processed

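Bulk RNA was sequenced as 100 bp single-end reads. The authors deposited raw counts per gene for 71 libraries. FastQC 0.11.3, fastp, STAR, DESeq2 1.24.0 and GRCm38 are named per the submitters' processing notes, while no source used here names the annotation release or strand setting. The table has 55416 Ensembl genes, of which 52083 were matched to GENCODE M21, and the other 3333 hold 0.847% of counts. Among 270 pairs of libraries of a group 0 held identical values.

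Groups follow the treatment field. Counts were tested in R 4.3.3 with edgeR 4.0.16 (TMM scaling, filterByExpr, quasi-likelihood test), per region, with batch as a term in hippocampus and frontal cortex and in their sham comparison. P-values were adjusted by Benjamini-Hochberg over all genes tested, and called means an adjusted p under 0.05. The SE given is the absolute log2 difference divided by the square root of its quasi-likelihood F, not a separately fitted error. DESeq2 1.42.0 was an alternative, along with other filters, scalings, batches and left-out libraries. CPM were scaled by TMM, and RPKM used union exon bases of GENCODE M21. Before correlations 0.1 CPM was added and the log2 taken for marker sums, and a prior count of 2 was used for genes like Dgkk. The fits were tested on simulated data. Total counts of 6.65 to 87.8 M per library set the counting error of the members.

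The members, the gene lists and the tests were chosen with earlier results of these data known. Named were all 10 members, list genes when called (at most 4 per contrast, by smallest p, of which 1 is not reported here) and the 5 genes most like Dgkk. Title numbers were not read as pairing libraries of different treatments within a region. Pairing across regions was not examined, and the region tests took libraries as unpaired.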

Additional observations from a re-analysis of the deposited data

Results flagged for a closer look

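Of 90 groups of 4 to 10 libraries tested for a single distant library, 1 was flagged, where chance flags about 1 in 20. Dgkk in piriform sham replicate 3 was at 2.869 CPM, with the next library of the group at 0.3794 CPM and the lowest at 0.04164 CPM, so that the gap to the next library made up 0.881 of the group's range. The same library had the highest striatal marker sum of the 5 piriform sham libraries, at 2054 CPM. The part of these markers in its Dgkk level was not tested.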

How the results depend on the processing

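Of 1357 alternative values 1281 kept their direction and their side of the threshold, or a count within 1.5 times. For the Dgkk difference in hippocampus burn against sham the threshold was not part of this score. All 29 of its fits with 1 library left out were scored as kept, while Dgkk was called in 18 of them. In hippocampus, burn against sham gave a Dgkk difference of 1.5572 in batch 1 alone and 0.6817 in batch 2 alone (0.94 to 1.19 with 1 library left out), and 2 members called in batch 1 alone, 0 in batch 2 alone, 0 without libraries under 10 M and 0 to 1 with 1 library left out. Signalling genes called there were 0 without a filter, 4 by DESeq2, 0 without a batch term, 6 in batch 1 alone, 0 in batch 2 alone and 0 to 4 with 1 library left out. Over all genes 123 were called without a filter, 629 by DESeq2, 106 without a batch term, 1324 in batch 1 alone and 31 in batch 2 alone, beside 202 in the main fit. In burn against excision the signalling genes called were 2 in batch 1 alone and 0 to 1 with 1 library left out.

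In frontal cortex, batch 1 alone called 1 member in burn against sham and 1 in burn against excision (0 to 1 with 1 library left out), and 11 and 7 signalling genes. Signalling genes in burn against sham were 3 by DESeq2, 0 in batch 2 alone, 0 with treatment from titles and 1 to 3 with 1 library left out, and in burn against excision 0 to 1. In piriform against frontal cortex 5 members and 15 signalling genes were called by DESeq2, 6 and 37 with all 3 treatments, and 2 to 5 and 5 to 13 with 1 library left out. In hippocampus against frontal cortex 54 signalling genes were called with all 3 treatments. The numbers called over all genes are not given here for batch 1 of frontal cortex or with all 3 treatments. Nothing particular to the members or the lists is read from these counts.

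The Dgkk difference changed sign in frontal burn against sham in batch 2 alone (0.0421), in frontal excision against sham in batch 2 alone (0.4316) and without sham replicate 5 (0.0288; range with 1 library left out -0.4081 to 0.0288), in piriform excision against sham with treatment from titles (-0.0649) and without excision replicate 4 (-0.0032; range with 1 library left out -0.0032 to 1.9862), and in piriform burn against sham without burn replicate 4 (0.0789) or sham replicate 3 (1.4319; range with 1 library left out -0.5790 to 1.4319). The causes were not tested.

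With the title number as a replicate block Dgkk in hippocampus burn against sham was 1.1151, the members called were unchanged in number, and 0 signalling genes passed in frontal burn against sham. In frontal and piriform cortex this fit also left out libraries whose labels disagree and those sharing a title number within a treatment and batch. The block and the smaller set of libraries cannot be told apart there. Same-numbered libraries correlated above 0.1 in 14 of 28 pairs in hippocampus, 4 of 11 in piriform and 11 of 24 in frontal cortex. Their median r was 0.086 in hippocampus, -0.055 in piriform and 0.020 in frontal cortex. Pairs of other numbers had medians of -0.028, -0.068 and 0.039 in the same order. The numbers were not read as pairing treatments within a region, though these values cannot exclude it. Depth bears most on the Dgkk values of the shallow hippocampus libraries, with as few as 3 counts.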
